A study of Mus musculus with 3 samples.

Results

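The DN peak list, the accessible regions called in dopaminergic neurons (DNs) of the ventral tegmental area (VTA) of the mouse midbrain, was searched around 10 LIM homeobox genes that specify other kinds of neuron, namely *Lhx1*, *Lhx2*, *Lhx3*, *Lhx4*, *Lhx5*, *Lhx6*, *Lhx8*, *Lhx9*, *Isl1* and *Isl2*. Every peak that overlapped the GENCODE gene body by at least 1 bp, or lay within 50 kb of it, was taken, and 18 of the 55326 peaks of the list met this rule. The list came from single-nucleus ATAC-seq, which cuts and tags open chromatin in isolated nuclei, of VTA tissue from wild-type male C57Bl/6Nl mice. The first library came from animals aged 7 weeks and the second from animals aged 9 weeks, no treatment is given in the labels, and the DN nuclei of both libraries had been pooled into 1 list of peaks, each 500 bp wide, before deposition. A library of mouse embryonic stem cells is also part of the series and was not analysed here. With 1 pooled list there is no spread between replicates, so counts are given without tests and are read beside the same counts over all 21755 protein-coding genes on chromosomes 1 to 19 and X. The list holds no score or read count, so the depth behind each peak is unknown, and a region without a peak is a region where none was called at this depth.

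LIM homeobox proteins carry a pair of LIM zinc-binding domains ahead of a homeodomain that binds DNA. The LIM domains recruit the cofactors Ldb1 and Ldb2, while the LIM-only proteins compete for the same cofactors. Combinations of LIM homeobox proteins distinguish classes of neuron from each other in the spinal cord and brain. *Lmx1a* and *Lmx1b* are the members of the family that specify and maintain midbrain DNs. The other 10 genes form 5 pairs of paralogs with roles elsewhere: *Lhx1* and *Lhx5* in spinal interneurons and the early forebrain, *Lhx2* and *Lhx9* in the forebrain, eye and gonad, *Lhx3* and *Lhx4* in the pituitary and motor neurons, *Lhx6* and *Lhx8* in interneurons and cholinergic neurons of the ventral forebrain, and *Isl1* and *Isl2* in motor neurons and sensory neurons.

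The gene bodies, in mm10 coordinates counted from 1, range from 7.25 kb for *Lhx1* (chr11:84518284-84525535) to 53.7 kb for *Lhx4* (chr1:155698031-155751684). *Lhx2* (chr2:38339281-38369733), *Lhx3* (chr2:26200212-26208289) and *Lhx6* (chr2:36081953-36105408) share a chromosome without sharing a window. *Lhx5* lies at chr5:120431699-120441223, *Lhx8* at chr3:154306294-154330659, *Lhx9* at chr1:138825186-138848577, *Isl1* at chr13:116298281-116309689 and *Isl2* at chr9:55538672-55546180.

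No peak was called at a transcription start site (TSS) of any of the 10 genes. A TSS was counted as accessible where the centre of a peak lay within 1 kb of it. None of the 22 annotated TSSs of the 10 genes met this, whereas 56.4% of all protein-coding genes had such a peak. The difference was wider among genes whose TSS is rich in CpG dinucleotides (GC content above 55% and an observed over expected CpG ratio above 0.6 in 1 kb around a TSS). Such promoters are open in most tissues, and 88.8% of the 9562 genes of this kind had a TSS peak in DNs, against 31.0% of the 12193 genes without. *Lhx1*, *Lhx2*, *Lhx4*, *Lhx5*, *Lhx6*, *Lhx8* and *Isl1*, 7 of the 10, have a CpG-rich TSS, and 11 of the 22 TSSs were CpG-rich. These 7 genes were among 1072 CpG-rich genes, 11.2% of that class, that had no TSS peak.

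Sequence just upstream of the TSS is shown for the 3 of the 10 genes with the most CpGs there. The 150 bases before the outermost TSS are given 5′ to 3′ on the strand of transcription (GRCm38, which is mm10). Each CpG is in capitals. *Isl1* and *Lhx2* had no peak within 50 kb, and *Lhx1* had the highest CpG ratio of the 10 in 1 kb around the outermost TSS. *Lmx1a*, whose promoter was accessible in DNs, is shown beside them.
Isl1 (chr13:116309690-116309839, minus strand): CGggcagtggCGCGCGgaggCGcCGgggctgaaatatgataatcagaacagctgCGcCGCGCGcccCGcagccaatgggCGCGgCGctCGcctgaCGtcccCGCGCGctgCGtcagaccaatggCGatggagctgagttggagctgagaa
Lhx2 (chr2:38339131-38339280, plus strand): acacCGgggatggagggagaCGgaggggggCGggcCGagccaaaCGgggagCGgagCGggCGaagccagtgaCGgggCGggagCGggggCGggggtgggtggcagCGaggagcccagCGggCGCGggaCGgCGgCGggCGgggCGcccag
Lhx1 (chr11:84525536-84525685, minus strand): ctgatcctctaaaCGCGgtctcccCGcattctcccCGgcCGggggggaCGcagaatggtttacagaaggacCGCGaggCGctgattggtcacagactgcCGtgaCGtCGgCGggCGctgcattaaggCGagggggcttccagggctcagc
Lmx1a (chr1:167689087-167689236, plus strand): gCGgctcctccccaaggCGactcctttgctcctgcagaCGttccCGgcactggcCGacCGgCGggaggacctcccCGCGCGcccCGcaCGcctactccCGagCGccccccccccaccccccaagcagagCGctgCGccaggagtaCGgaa
The *Isl1* and *Lhx2* stretches hold 21 CpGs each and the *Lhx1* stretch 15, and no base of the 3 lay in a peak. The *Lmx1a* stretch holds 17 CpGs, and 132 of its 150 bases lay in a peak. The same stretch of *Lmx1b* holds 19 CpGs, and no base of it lay in a peak, since its nearest peak was centred 0.703 kb from the TSS. GC content was 68.7% for *Isl1*, 81.3% for *Lhx2*, 65.3% for *Lhx1* and 74.7% for *Lmx1a*. The same stretches of the other 7 LIM homeobox genes hold fewer CpGs, from 3 for *Lhx5* and *Lhx8* to 12 for *Isl2*, at GC contents from 39.3% to 70.7%. The *Lmx1a* stretch thus holds more CpGs than 8 of the 10 and fewer than those of *Isl1* and *Lhx2*.

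When all protein-coding genes were ordered by the CpG ratio in 1 kb around the outermost TSS, the share with a TSS peak rose from 2.67% below a ratio of 0.1 to 92.6% between 0.8 and 0.9. The 10 genes covered ratios from 0.295 for *Lhx3* to 0.84 for *Lhx1*. *Lhx2*, *Lhx6*, *Lhx8* and *Isl2* fell between 0.6 and 0.7, where 80.8% of genes had a TSS peak. *Lhx4*, *Lhx5* and *Isl1* fell between 0.7 and 0.8, where 88.2% had one, and *Lhx1* between 0.8 and 0.9. *Lhx9*, at 0.529, fell where 73.7% had one, and *Lhx3* where 17.8% had one. The low ratio of *Lhx3* is that of its outermost TSS only, and its other TSS had a ratio of 0.591. The other 9 genes lay in ranges where most genes had a peak.

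**Figure D1:**
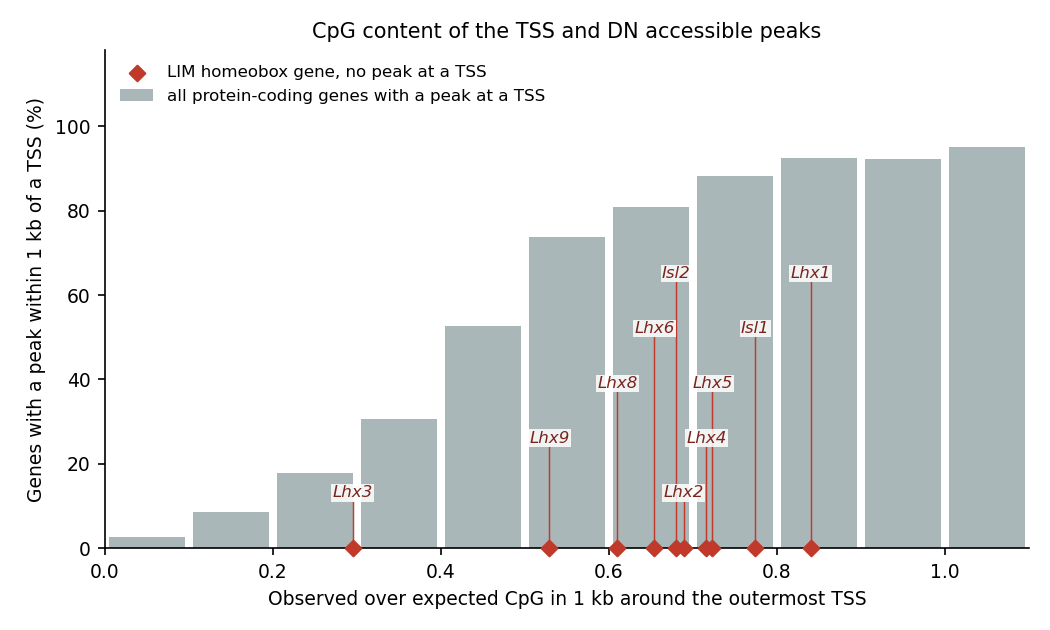
Bars give the percentage of protein-coding genes with a peak centred within 1 kb of a TSS, by the observed over expected CpG ratio in 1 kb around the outermost TSS in steps of 0.1. Diamonds at 0 place the 10 LIM homeobox genes by their own ratio: none had a TSS peak, and 9 of them stand under bars above 70%.

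Peaks were sparse in the wider surroundings as well, but not independently of the TSS result. Here and in the comparisons with all genes below, peaks at a gene's own TSS are counted, and the 10 genes have none. At least 1 peak lay within 50 kb of 8 of the 10 genes, close to the 83.2% of all protein-coding genes, so having any peak nearby did not set them apart. The number did differ: *Lhx3* had 6 peaks, *Isl2* had 3, *Lhx4*, *Lhx6* and *Lhx8* had 2 each, and *Lhx1*, *Lhx5* and *Lhx9* had 1 each. *Lhx2* and *Isl1* had 0. The median was 1.5 peaks (quartiles 1 and 2), against 4 (quartiles 2 and 9) over all protein-coding genes. Scaled to the length of the window, the medians were 1.12 and 3.1 peaks per 100 kb. *Lhx3* alone lay above the median of all genes, and 36.3% of genes had more peaks than it. *Lhx2* and *Isl1* belonged to the 181 CpG-rich genes, 1.89% of that class, with no peak in the window.

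Inside the gene bodies, 2 peaks were found, in 2 of the 10 genes, whereas 63.8% of all protein-coding genes had a peak in the body. The peak of *Lhx5* (chr5:120440697-120441196) lay in its 3′ UTR, 9.25 kb downstream of the TSS. The peak of *Isl2* (chr9:55544939-55545438) overlapped an intron, 4.04 kb downstream of the TSS. The bodies of *Lhx1*, *Lhx2*, *Lhx3*, *Lhx4*, *Lhx6*, *Lhx8*, *Lhx9* and *Isl1* held none.

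**Figure D2:**
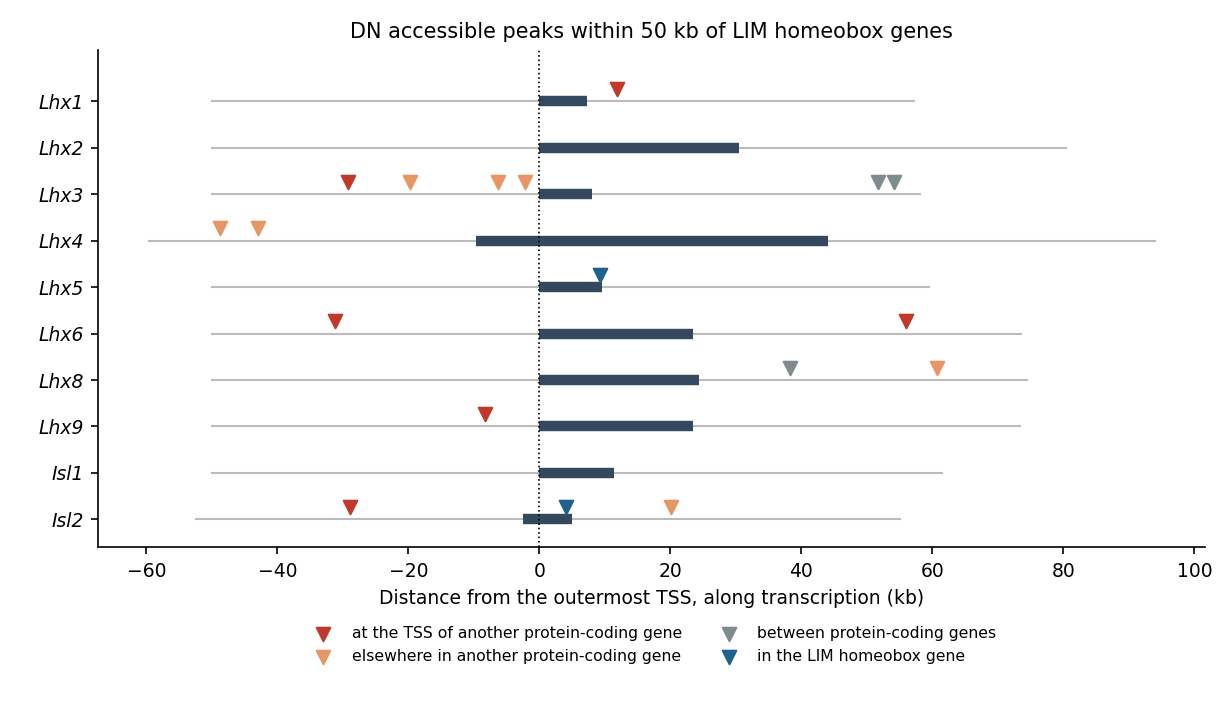
Peaks (triangles, placed by their centre) around each of the 10 genes, in kb from the outermost TSS along the direction of transcription, with the gene body as a thick bar and the 50 kb searched on each side as a thin line. Of the 18 peaks, 6 (red) lie at the TSS of another protein-coding gene and 2 (blue) in the LIM homeobox gene itself. The bars of *Lhx4* and *Isl2* reach left of 0 because their annotated bodies begin before the outermost TSS used.

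Some of the window peaks lay at promoters of neighbours. Of the 18 peaks, 6 (33.3%, exact binomial 95% interval 13.3% to 59%, counting error only) were centred within 1 kb of the TSS of another protein-coding gene, a share like the 30.1% of all peaks in the list at a protein-coding TSS. The only peak near *Lhx1* (chr11:84513363-84513862) was at the TSS of *Aatf*, which encodes a ribosome biogenesis factor, and the only peak near *Lhx9* (chr1:138856613-138857112) was at the TSS of *2310009B15Rik*. Both peaks near *Lhx6* were promoters, that of *Ndufa8* and *Morn5* (chr2:36049130-36049629) and that of *Rbm18* and *Mrrf* (chr2:36136404-36136903). *Ndufa8* encodes a subunit of mitochondrial complex I and *Mrrf* the mitochondrial ribosome recycling factor. *Qsox2*, a sulfhydryl oxidase gene upstream of *Lhx3*, and *Etfa*, an electron transfer flavoprotein gene upstream of *Isl2*, gave the other 2. Among all protein-coding neighbours with a TSS in these windows, 8 of 10 had a TSS peak (56.4% of all protein-coding genes), and *Sdsl* and *Sds*, downstream of *Lhx5*, did not. The accessible neighbours stood as close as 8.29 kb, the distance from the *Lhx9* TSS to the *2310009B15Rik* peak.

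Some non-coding transcripts start next to the LIM homeobox genes. *Lhx1os*, *Gm27199*, *AI606473* and *Gm17226* are non-coding genes on the opposite strand whose TSSs lie 0.134 kb from that of *Lhx1*, 0.068 kb from that of *Lhx5*, 0.162 kb from that of *Lhx8* and 0.26 kb from that of *Isl2*. None of these 4 had a TSS peak, which follows from the distance of the nearest peak to the LIM homeobox TSS beside them and adds nothing to it. Of all 19 neighbours that are not protein-coding, 0 had a TSS peak, beside 10.9% of 32088 such genes. For these 4 and for the neighbours of *Lhx2* and *Isl1*, whose windows held no peak, this was fixed in advance.

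After the 6 promoters of neighbours were set aside, 12 peaks remained, around 5 of the 10 genes, whereas 78.5% of all protein-coding genes had such a peak. The median was 0.5, against 3 over all genes, with peaks at their own TSSs counted. Of the 12 peaks, 7 lay inside other protein-coding genes away from a TSS, 3 lay between protein-coding genes and 2 were those of *Lhx5* and *Isl2*. *Lhx3* had 5 of the 12: 3 inside *Qsox2*, at 2.22, 6.34 and 19.7 kb upstream of the *Lhx3* TSS, and 2 between genes, at 51.7 and 54.1 kb downstream. The nearest of them (chr2:26210255-26210754) overlapped a UTR of *Qsox2*. Both peaks of *Lhx4* (chr1:155784775-155785274 and chr1:155790535-155791034), at 43 and 48.8 kb upstream, lay in introns of *Qsox1*, a paralog of *Qsox2*. *Lhx8* had a peak between genes (chr3:154292094-154292593) 38.3 kb downstream and a peak in an intron of *Slc44a5* (chr3:154269680-154270179) 60.7 kb downstream, both measured from the outermost TSS. The third peak of *Isl2* (chr9:55560974-55561473), 20.1 kb downstream, lay in an intron of *Scaper*. A peak inside a neighbour cannot be assigned to either gene from its position alone.

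Sequence from 4 of these peaks is shown on the plus strand, with matches to the motif letters in capitals. They are the peak in the *Isl2* intron, with GGGCGG, the letters of Sp factors, and TAATCC, those of bicoid-class homeodomains; the *Lhx8* peak in *Slc44a5*, with the forkhead letters TGTTTAC; and the *Lhx5* peak in the UTR and an *Lhx3* peak in a *Qsox2* intron, each with a match to the consensus of the insulator protein Ctcf.
Isl2 (chr9:55545259-55545408): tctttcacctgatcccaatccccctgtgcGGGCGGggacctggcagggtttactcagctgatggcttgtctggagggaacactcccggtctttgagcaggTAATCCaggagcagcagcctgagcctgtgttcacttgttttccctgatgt
Lhx8 (chr3:154269780-154269939): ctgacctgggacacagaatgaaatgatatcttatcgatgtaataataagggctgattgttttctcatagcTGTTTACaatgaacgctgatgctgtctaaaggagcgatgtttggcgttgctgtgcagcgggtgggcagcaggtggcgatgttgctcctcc
Lhx5 (chr5:120440903-120440932): cgagttggcGCCCCCTGGTGGctcaatgtc
Lhx3 (chr2:26227958-26227987): agttcttctGCCCCCTAGTGGaaggaatat
Across the 18 peaks, with both strands searched and overlapping matches not separated, the homeodomain core TAATTA was found in 0 (exact binomial 95% interval 0% to 18.5%), against 7.27% of all peaks, which are of the same width. TAATCC was found in 2 (11.1%, against 13.6% of all peaks), TGTTTAC in 1 (5.56%, against 7.22%), the Nr4a letters AAAGGTCA in 1 (5.56%, against 4%), the Neurod E-box CAGATGG in 4 (22.2%, against 11.5%), GGGCGG in 8 (44.4%, against 32.3%) and the Ctcf consensus in 3 (16.7%, against 10.1%). For each of the 7 motifs the interval over the 18 peaks held the share of all peaks. The intervals are wide, so this does not show that the shares are alike. They also take the peaks as independent, although 6 of the 18 lie in the *Lhx3* window. A match to letters is not evidence of a bound factor. The 6 promoters of neighbours had a median GC content of 63.2%, and the other 12 peaks 52.1%, beside 62.2% for all peaks at a protein-coding TSS and 49.4% for all others.

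The distance from a TSS to the centre of the nearest peak was 2.22 kb for *Lhx3*, 4.04 kb for *Isl2*, 8.29 kb for *Lhx9*, 8.72 kb for *Lhx1*, 9.25 kb for *Lhx5*, 31.2 kb for *Lhx6*, 37.7 kb for *Lhx8*, 43 kb for *Lhx4*, 51.9 kb for *Lhx2* and 403 kb for *Isl1*. The median was 20.2 kb, against 0.252 kb for all protein-coding genes and 0.0675 kb for those with a CpG-rich TSS. A gene with a TSS peak lies within 1 kb of it by definition, so this difference in part restates the TSS result. *Isl1* stood apart from the other 9, and 0.167% of CpG-rich genes lay farther from a peak. For *Lhx2*, the next in order, 2.71% did.

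**Figure D3:**
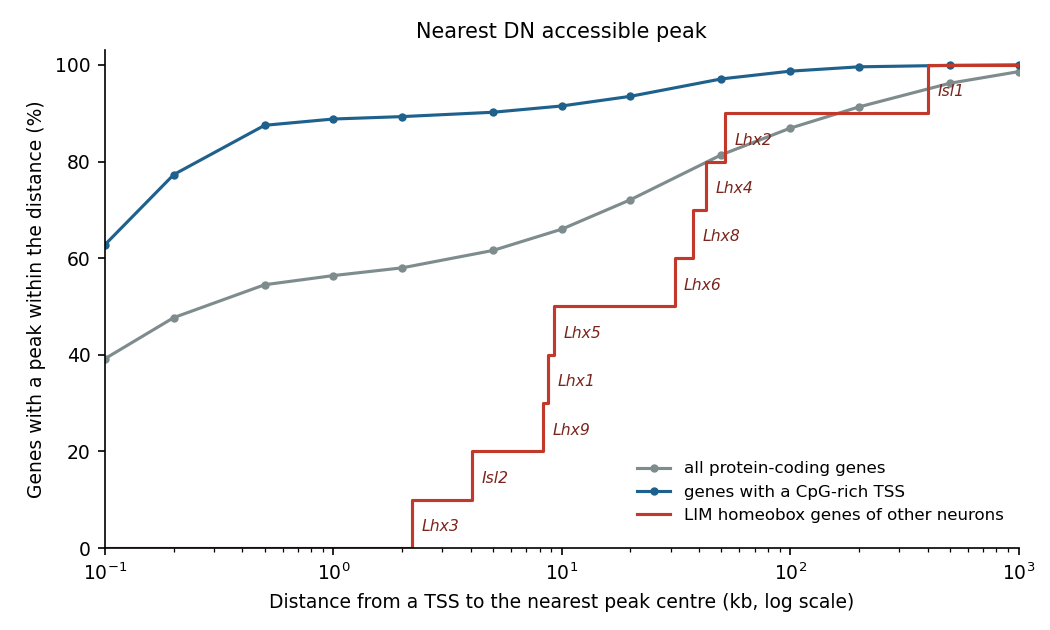
Cumulative percentage of genes (y axis) with a peak centred within a given distance of a TSS (x axis, kb, log scale), for all protein-coding genes, for those with a CpG-rich TSS and for the 10 LIM homeobox genes, each of which is a step. By 1 kb the curves had reached 56.4% and 88.8%, whereas the first LIM homeobox gene, *Lhx3*, enters at 2.22 kb and the last, *Isl1*, at 403 kb.

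The length of the peak-free stretch that holds the outermost TSS was also measured. It was 1365 kb for *Isl1* (chr13:115347139-116712226), with no other protein-coding TSS inside, and 280 kb for *Lhx8*, 237 kb for *Lhx9*, 222 kb for *Lhx2*, 208 kb for *Lhx4* and 128 kb for *Lhx1*. The stretches of *Lhx6* (86.8 kb), *Lhx5* (74.3 kb), *Lhx3* (53.4 kb) and *Isl2* (32.4 kb) were shorter. The median over the LIM homeobox genes was 168 kb. The medians computed for all protein-coding genes, 44.8 kb, and for those with a CpG-rich TSS, 17.9 kb, are not a like background. They cover 21652 and 9549 genes, although 47.7% and 77.3% of these classes had a peak centred within 0.2 kb of a TSS. A TSS that close to the centre of a 500 bp peak lies inside it and in no peak-free stretch. The 56.5% of genes counted in a longer stretch than that of *Isl2* has the same limit, so no comparison is drawn.

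Widening the search brought the counts closer to those of other genes. Within 10 kb of the gene body the median was 0.5 peaks, against 2 for all protein-coding genes. It was 3.5 against 8 within 100 kb, 8.5 against 17 within 250 kb, 26 against 31 within 500 kb and 53.5 against 60 within 1000 kb. The gap was thus widest, relative to other genes, within 10 kb of the gene. Single genes departed from this course. *Isl1* had no peak within 250 kb, 2 within 500 kb and 8 within 1000 kb, and *Lhx9* had 18 within 1000 kb. *Lhx3* had 175 within 1000 kb, above the upper quartile of 112 of all genes.

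**Figure D4:**
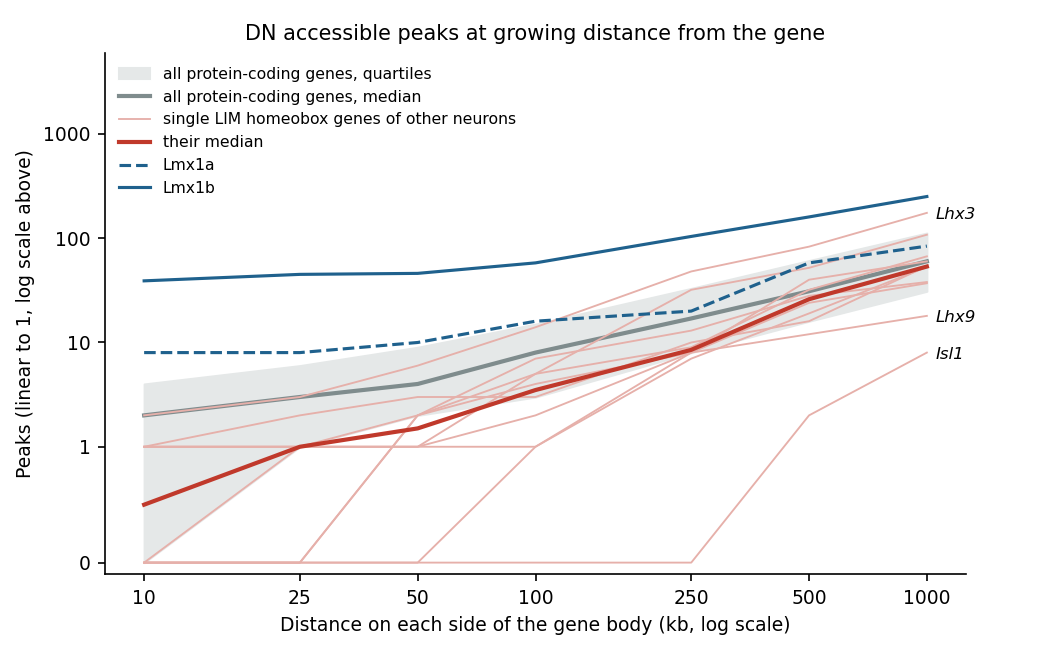
Number of peaks (y axis, linear to 1 and logarithmic above) overlapping the gene body or lying within 10 to 1000 kb on each side (x axis, log scale). Thin lines are the 10 genes, thick lines the median of the 10 (red) and of all protein-coding genes (grey, with the quartiles shaded), and blue lines *Lmx1a* and *Lmx1b*: the red line starts at 0.5 against 2 and ends at 53.5 against 60.

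Gene density moved with these counts. The 10 genes had a median of 1 other protein-coding gene with a TSS in the window, against 2 for all genes, and windows with fewer such genes held fewer peaks. *Lhx2*, *Lhx4*, *Lhx8* and *Isl1* had none, and 2 of the 4 had a peak in the window, beside 76.0% of the 3605 genes with no such neighbour, whose median was 2 peaks. *Lhx1*, *Lhx3*, *Lhx9* and *Isl2* had 1 such neighbour and 1, 6, 1 and 3 peaks, beside a median of 3. *Lhx5*, with 2 neighbours, had 1 peak beside a median of 4, and *Lhx6*, with 4 neighbours, had 2 beside a median of 6 for genes with 4 to 5. Against these classes, *Lhx4*, *Lhx8* and *Isl2* equalled the median, *Lhx3* exceeded it, and *Lhx1*, *Lhx2*, *Lhx5*, *Lhx6*, *Lhx9* and *Isl1* were below it. The part of gene density in the counts was not tested further.

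When each peak of the whole list was given to the protein-coding gene with the nearest TSS, at any distance, 15 peaks fell to 5 of the 10 genes, beside 68.6% of all protein-coding genes with at least 1. *Lhx8* received 6, *Lhx5* 3, and *Lhx1*, *Lhx3* and *Isl2* 2 each, while *Lhx2*, *Lhx4*, *Lhx6*, *Lhx9* and *Isl1* received none. The median was 1 for the 10 genes and 1 for all genes, so by this measure the counts did not stand apart. Only 7 of the 18 window peaks were among the 15, and the other 8 lay more than 50 kb from the gene bodies.

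The paralogs of a pair differed in their surroundings. *Lhx1* and *Lhx5* had 1 peak each, at the *Aatf* promoter and in the *Lhx5* UTR. *Lhx2* had 0 and *Lhx9* 1, the latter at the promoter of a neighbour. *Lhx3* had 6 and *Lhx4* 2, and for both genes the peaks upstream lay in the *Qsox* gene beside them. *Lhx6* and *Lhx8* had 2 each, all at promoters of neighbours for *Lhx6* and none there for *Lhx8*. *Isl1* had 0 and *Isl2* 3. In every pair the TSS of both paralogs was without a peak.

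Counts were higher for the members of the family that DNs use. *Lmx1a* had 10 peaks within 50 kb, 7 of them in its body, and *Lmx1b* had 46, of which 28 were in its body. Their bodies, of 160 kb and 79.5 kb, are longer than those of the 10 genes. Per 100 kb of window, *Lmx1b* had 25.6 peaks, but *Lmx1a* had 3.85, near the median of 3.1 over all genes and below the 5.55 of *Lhx3*. *Lmx1a* and *Lmx1b* each had 2 peaks centred within 1 kb of a TSS, the nearest at 0.269 kb for *Lmx1a* and 0.703 kb for *Lmx1b*. The outermost TSS of *Lmx1a* lay between peaks, in a peak-free stretch of 0.391 kb. The TSS of *Lmx1b* also lay between peaks, in a stretch of 1.08 kb, and at a limit of 500 bp it would not count as accessible. More peaks than *Lmx1a* were found for 21% of protein-coding genes. Only 0.207% had more than *Lmx1b*, but the accessibility of *Lmx1b* had been used to check the DN cluster. Its count is thus a description and not independent of that choice. Of the LIM-only genes *Lmo1*, *Lmo2*, *Lmo3* and *Lmo4* and the cofactor genes *Ldb1* and *Ldb2*, 6 of 6 had a TSS peak, beside 56.4% of all protein-coding genes and 88.8% of those with a CpG-rich TSS, which 4 of the 6 have. They had 6, 6, 5, 4, 12 and 7 peaks in the window. *Lmo3* and *Ldb2* had a TSS peak without a CpG-rich TSS, like 31.0% of the genes of that kind.

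The lists that follow are read beside the 56.4% of all protein-coding genes with a TSS peak and the 88.8% of those with a CpG-rich TSS. Of 9 transcription factors of midbrain DNs, the *Lmx1* genes included, 9 had a TSS peak and 7 have a CpG-rich TSS, with a median of 10 peaks in the window, from 2 for *Otx2* to 46 for *Lmx1b*. *Lmx1b*, *Foxa1* and *Foxa2* of this list were among the markers with which the DN cluster, chosen by *Th*, had been checked. Of 7 selector genes of midbrain GABAergic neurons, the other main neuron class of the region, 0 had a TSS peak and 4 have a CpG-rich TSS, with a median of 1 peak and from 0 for *Gata3*, *Tal1* and *Sox14* to 2 for *Tal2*. The 10 LIM homeobox genes likewise had no TSS peak, and their median was 1.5. Their counts reached 6, with 18 peaks in all, against 5 peaks in all for the 7 selectors. Of 11 POU homeobox genes, another family of neuronal factors, 7 had a TSS peak (63.6%, near the share of all genes) and 8 have a CpG-rich TSS, with a median of 2 peaks and from 0 for *Pou4f2*, *Pou4f3* and *Pou6f1* to 29 for *Pou2f2*.

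**Figure D5:**
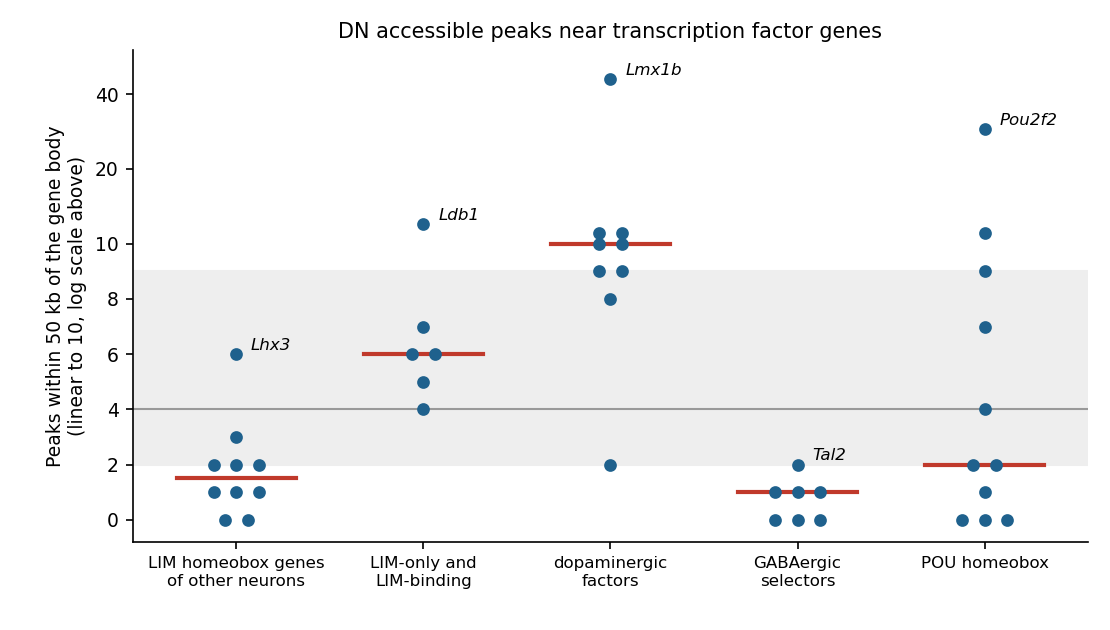
Peaks overlapping the gene body or within 50 kb of it (y axis, linear to 10 and logarithmic above) for each gene (point) of 5 lists, with the median of the list as a red line and the gene with the most peaks named. The grey line and band are the median of 4 and the quartiles of 2 and 9 of all protein-coding genes: the median of the LIM homeobox genes of other neurons, 1.5, and that of the GABAergic selectors, 1, lie below the band.

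Markers of the cell types of the region were counted in the same way. A TSS peak was found for 9 of 9 DN markers, among them *Th* and *Slc6a3*, which encode tyrosine hydroxylase and the dopamine transporter. The DN cluster had been chosen by the accessibility of *Th* and checked with *Slc6a3*, *Lmx1b*, *Foxa1* and *Foxa2*, so this count was largely fixed by that choice and is no independent check of the label. A TSS peak was found for 1 of 6 markers of the oligodendrocyte lineage, 0 of 5 of astrocytes, 0 of 5 of microglia, 1 of 3 of GABAergic neurons (*Slc32a1*) and 1 of 2 of glutamatergic neurons (*Slc17a6*), beside 56.4% of all protein-coding genes. None of the astrocyte and microglia markers has a CpG-rich TSS, a class in which 31.0% of genes had a TSS peak, so their counts of 0 say little about the label. The median number of peaks in the window was 11 for DN markers, 8 for microglia and 6 for astrocytes, against 4 over all genes. It was 3 for the oligodendrocyte lineage, 3 for GABAergic and 5 for glutamatergic neurons.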

How the data were processed

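Single-nucleus ATAC-seq had been done on 2 VTA libraries. Per the study's methods and processing notes, the authors mapped reads to mm10 with Cell Ranger, clustered nuclei with ArchR and chose the DN cluster by the gene score of *Th*, checked with other DN markers. Doublets had been gated out by DNA content during sorting and removed with the ArchR defaults, and nuclei of low quality had then been left out. The authors then generated pseudobulk replicates and kept reproducible peaks after merging overlaps. The deposited list gives a chromosome, start and end for each peak of the pooled libraries, without a header. The authors also describe a filter on the share of nuclei with a peak, and whether the list had passed it is not given in the sources used here. A pool of few nuclei limits the calling of weak or rare regions, and peaks of fixed width carry no height.

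Starts were read as counted from 0 and are printed counted from 1. Genes and TSSs (protein-coding transcripts tagged basic) were taken from GENCODE M21, and sequences from RefSeq GRCm38.p6, which has the chromosome sequences of mm10. Windows, classes, distances, CpG ratios and motif matches were computed with Python 3.11.15, numpy 2.4.6 and scipy 1.17.1, and the counting was tested on simulated data. A neighbour was named by rule where a peak lay within 1 kb of its TSS. Other neighbours that hold a peak, *Sdsl*, *Sds* and the non-coding genes at the TSSs were named after their values were seen. From the comparison lists, genes with the most and fewest peaks were named; markers were named after their values were seen. The members and lists were chosen with earlier results of these data known. Alternatives covered the window, overlap, start convention, TSS definition and neighbours. No p-value was computed.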

Additional observations from a re-analysis of the deposited data

How the results depend on the processing

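None of the 10 genes had a TSS peak within 2000 bp or with the TSSs of all transcripts. A limit of 500 bp and the outermost TSS only also gave 0, as they must, being narrower than the limit of 1 kb. The window counts depended on the window. Genes with a peak numbered 8 within 50 kb, 2 in the gene body only and 5 within 10 kb, and peaks numbered 18 within 50 kb, 6 within 10 kb, 42 within 100 kb and 7 up to the nearest flanking protein-coding gene. The median of 1.5 was 0.5 within 10 kb and 3.5 within 100 kb. Without peaks at the TSS of another gene, 5 genes had a peak and the median was 0.5. The 15 peaks with a LIM homeobox gene as the nearest protein-coding TSS fell to 4 when genes of all biotypes could take them, since non-coding genes then take peaks by construction. Requiring the peak centre in the window left 8 genes and 18 peaks, and requiring it in the gene body left 2 peaks. Counting starts from 1 left 18 peaks in the windows and was not run for the other counts. A stricter peak threshold could not be applied, because the list holds no score. No paired analysis was possible because both DN libraries are pooled in 1 list. Fewer nuclei with an open region and a weaker signal per nucleus cannot be told apart.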
